A study of Bos taurus with 8 samples.

Results

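The ubiquitin-specific proteases (USP genes) are the largest family of enzymes that take ubiquitin off other proteins. Members were all genes of the deposited gene table whose symbol is USP followed by a number, with an optional X, Y or L ending, and the rule used no measured value. It found 49 of 30983 genes. The animals were Chinese Red Steppes cattle, and testicular lobules came from mature testes of bulls slaughtered at 24 months and from immature testes of calves castrated at 1 day of age, with 3 animals per age and 1 animal per mRNA library. The way of collection went with age, so the 2 cannot be told apart. No agent or genetic change was applied, and all animals were males of the same breed.

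Ubiquitin is a small protein that is joined in chains to other proteins and marks many of them for destruction by the proteasome. USP enzymes cut the bond with a catalytic cysteine, and so spare a protein, edit its chains or return ubiquitin to the free pool. In the testis, ubiquitin on histones and on cell cycle proteins is turned over as spermatogonia become spermatocytes, spermatids and sperm, and mice that lack single USP genes such as Usp1 or Usp2 have been described with defects of male fertility.

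Library totals ran from 14139087 to 15846257 counts. Levels are given in CPM, the counts scaled to a common library size with TMM factors, as the mean ± SD over 3 libraries. A positive log2 fold change means a higher level in mature testis, and each comes with its standard error (SE) from edgeR's quasi-likelihood test. A gene was called at a Benjamini-Hochberg adjusted p under 0.05 over 19972 tested genes and an absolute log2 fold change above 1. Immature replicates 1 and 3 stood apart, with 194 and 170 genes at 5 CPM or more whose level exceeded that of either other calf by over 3 times, against 11 to 21 genes in the other 4 libraries. These counts are out of all 30983 genes of the table, so at the same share a set of 49 would hold few or none. No USP gene was among the genes that stood apart (0 in each library), which does not set the family apart. The markers of germ cells and of somatic cells also differed between the ages. All 10 spermatid markers rose, with a summed level of 9670 to 15312 CPM in mature and 6.55 to 9.24 CPM in immature libraries, where SPACA4 had 0 counts. All 8 spermatocyte markers rose (1012 to 1120 CPM in mature and 34.4 to 44.3 CPM in immature libraries). Of 10 Sertoli markers 8 fell and 2 rose (1735 to 1915 CPM in mature and 10008 to 13396 CPM in immature libraries). Of 5 peritubular markers 4 fell and 0 rose (515 to 549 against 1312 to 2408 CPM), all 5 endothelial markers fell (51.2 to 58.4 against 222 to 368 CPM), 3 of 7 Leydig markers fell and 0 rose (1532 to 2878 against 1907 to 3097 CPM), and of 6 leukocyte markers 5 fell and 1 rose (135 to 149 against 121 to 197 CPM). AIF1, the leukocyte marker that rose, made up most of the leukocyte sum in mature libraries (97.6 ± 6.31 CPM in mature and 12.6 ± 5.33 CPM in immature testis). Of the 7 tested early germ cell markers 3 rose and 2 fell (570.0 to 637 against 57.8 to 163 CPM). Most of that sum in mature libraries came from DDX4 (406 ± 29.6 CPM) and DAZL (167 ± 6.66 CPM), which rose. GFRA1 (log2 fold change −2.73) and PIWIL4 (−2.04) fell, so the sum does not stand for each marker. Of 7 erythroid markers 2 were tested, 1 higher and 1 lower (2.62 to 3.95 against 2.92 to 63.0 CPM). HBA1 had 0 counts in mature libraries and only 2, 0 and 1 counts in immature libraries, so its 0 shows no difference. The part of these markers in the USP results was not tested, and in tissue a change in the number of a cell type cannot be told apart from a change in RNA per cell.

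All 49 USP genes passed the filter on low counts and were tested. In mature testis 14 rose and 9 fell, and 26 were not called. Among all tested genes 62.0% were called, 31.7% higher and 30.4% lower, and among USP genes 46.9% were called, 28.6% higher and 18.4% lower. With upper-quartile factors the split of USP genes was 12 higher and 12 lower. At that setting fewer of all tested genes were higher than lower, and USP genes had the smaller share in both directions. The median log2 fold change of the USP genes was 0.23 and that of all tested genes was −0.040. Other scalings, which shift all genes alike, moved the median of all genes to between −0.24 and 0.050 and the USP median to between 0.025 and 0.32. The gap of 0.27 between both medians fell to 0.11 without immature replicate 2 and to 0.17 without immature replicate 3. The median size of the log2 fold change, without regard to sign, was 0.96 in USP genes and 1.47 in all tested genes. The ages did not overlap in 43 USP genes, or 87.8%, where the share over all tested genes was 81.7% (40.9% with every bull above every calf and 40.9% with every bull below).

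**Figure D1:**
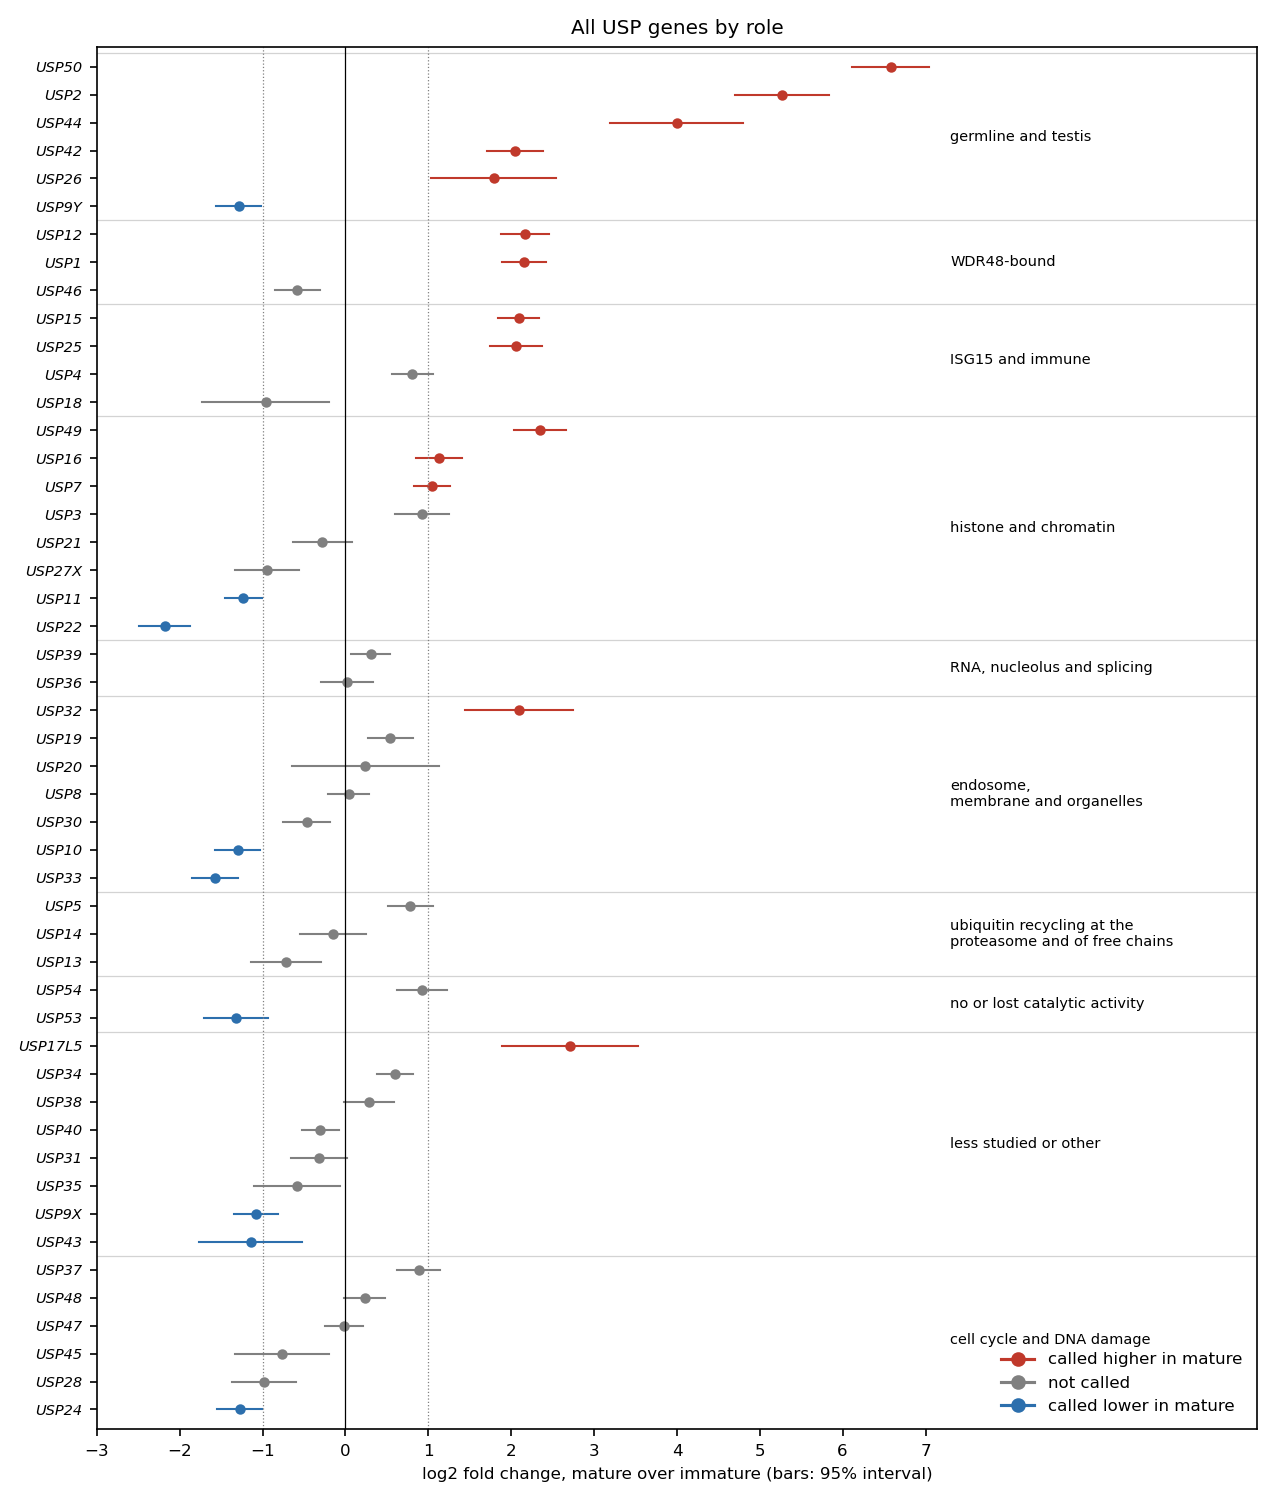
Log2 fold change, mature over immature, of each of the 49 USP genes (points) with its 95% interval (bars), grouped by role. The dotted lines mark the threshold of 1 on the log2 scale, and USP50 at 6.58 and USP22 at −2.18 are the ends of the range.

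Together the USP genes held 0.560% ± 0.0129 of all counts in mature and 0.411% ± 0.0102 in immature libraries (SD, n = 3 each), and the groups did not overlap. Their summed level was 5739 ± 94.5 CPM in mature and 4023 ± 157 CPM in immature libraries. USP2 and USP50, picked here after their values were seen, held 11.6%, 12.8% and 12.7% of that sum in mature replicates 1, 2 and 3, and 0.258%, 0.295% and 0.399% in immature replicates 1, 2 and 3. Without them the sum was 5027 ± 48.9 CPM in mature and 4011 ± 155 CPM in immature libraries.

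Of the 6 USP genes listed for germline or testis roles, 5 rose and 1 fell in mature testis, where 31.7% of all tested genes rose and 30.4% fell. The counts of the other role groups stand against the same shares. All role groups were drawn up with earlier results of these data known, so their counts are a description only. USP1, which rose, and USP14, which was not called, have described roles in male fertility or spermatogenesis but stand in other groups. For USP50 and USP44 no such role is described here. USP50, a little-studied relative of USP8, was at 343, 379 and 368 CPM in mature and at 2.81, 4.86 and 3.71 CPM in immature libraries. Each mature library was far above each immature library, and this was the largest change of the family (log2 fold change 6.58, SE 0.20, adjusted p = 3.87e-08). USP2, which in mice is needed for normal male fertility and elsewhere acts on cyclin D1 and on MDM2, was at 311, 361 and 372 CPM in mature and at 7.10, 7.32 and 12.6 CPM in immature libraries. The groups were wide apart, with immature replicate 3 the highest of the calves (5.27, SE 0.25, adjusted p = 3.97e-07). In the RefSeq annotation of ARS-UCD2.0 the lncRNA LOC101903835 overlaps USP2. It had 302, 337 and 308 counts in mature and 25, 15 and 17 counts in immature libraries, against 4965, 5383 and 5395 counts of USP2 in mature and 106, 113 and 191 in immature libraries, and without a stated strand setting reads of the overlap cannot be told apart.

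USP44, a regulator of the spindle checkpoint that in human cells keeps CDC20 from activating the anaphase-promoting complex, was at 14.5, 15.0 and 26.8 CPM in mature and at 0.804, 1.30 and 1.39 CPM in immature libraries. It rose from 12, 20 and 21 counts in immature libraries (3.998, SE 0.35, adjusted p = 1.15e-05), and mature replicate 3 stood above the other bulls. The summed spermatid markers were also highest in that library, at 15312 CPM against 9670 and 13191 CPM in mature replicates 1 and 2. So were the summed spermatocyte (1120 against 1012 and 1064 CPM), early germ cell (637 against 599 and 570 CPM) and peritubular markers (549 against 537 and 515 CPM). In bulls the early germ cell sum was mostly DDX4 and DAZL. The summed Leydig and leukocyte markers were lowest there. The part of these markers in the level of USP44 was not tested. Without mature replicate 3 USP44 stayed called. USP42, which is transcribed in mouse testis and acts on p53 in human cells, was at 205, 197 and 228 CPM in mature and at 41.3, 55.5 and 56.2 CPM in immature libraries. It rose about as much in each bull (2.04, SE 0.15, adjusted p = 3.53e-06). USP26, an X-linked gene known for its expression in testis, was at 16.5, 19.6 and 16.5 CPM in mature and at 2.55, 6.09 and 6.55 CPM in immature libraries. Immature replicate 1 was the lowest, and the groups did not overlap (1.79, SE 0.33, adjusted p = 0.00108). The summed early germ cell markers were also lowest in that library (57.8 CPM against 90.1 and 163 CPM in immature replicates 2 and 3). So were the summed spermatocyte (34.4 against 43.9 and 44.3 CPM) and endothelial markers (222 against 280 and 368 CPM). The summed spermatid, Leydig, peritubular, leukocyte and erythroid markers were highest there. The part of these markers was not tested.

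USP9Y, the Y-linked copy of USP9X, whose human counterpart lies in a region deleted in some infertile men, fell. It was at 33.4, 34.6 and 38.3 CPM in mature and at 86.9, 91.9 and 81.0 CPM in immature libraries, with no overlap (−1.29, SE 0.12, adjusted p = 1.46e-05). USP9X was at 140.0, 163 and 138 CPM in mature and at 302, 338 and 292 CPM in immature libraries. Its fold was near the threshold (−1.08, SE 0.11, adjusted p = 3.56e-05) and missed it in DESeq2 and with relative log expression factors (−0.99 in both) and without mature replicate 1 or 3 (−0.98 in both). USP9X and USP9Y are copies of one ancestral gene, so some reads may match both, and how such reads were assigned is not described in the sources used here.

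**Figure D2:**
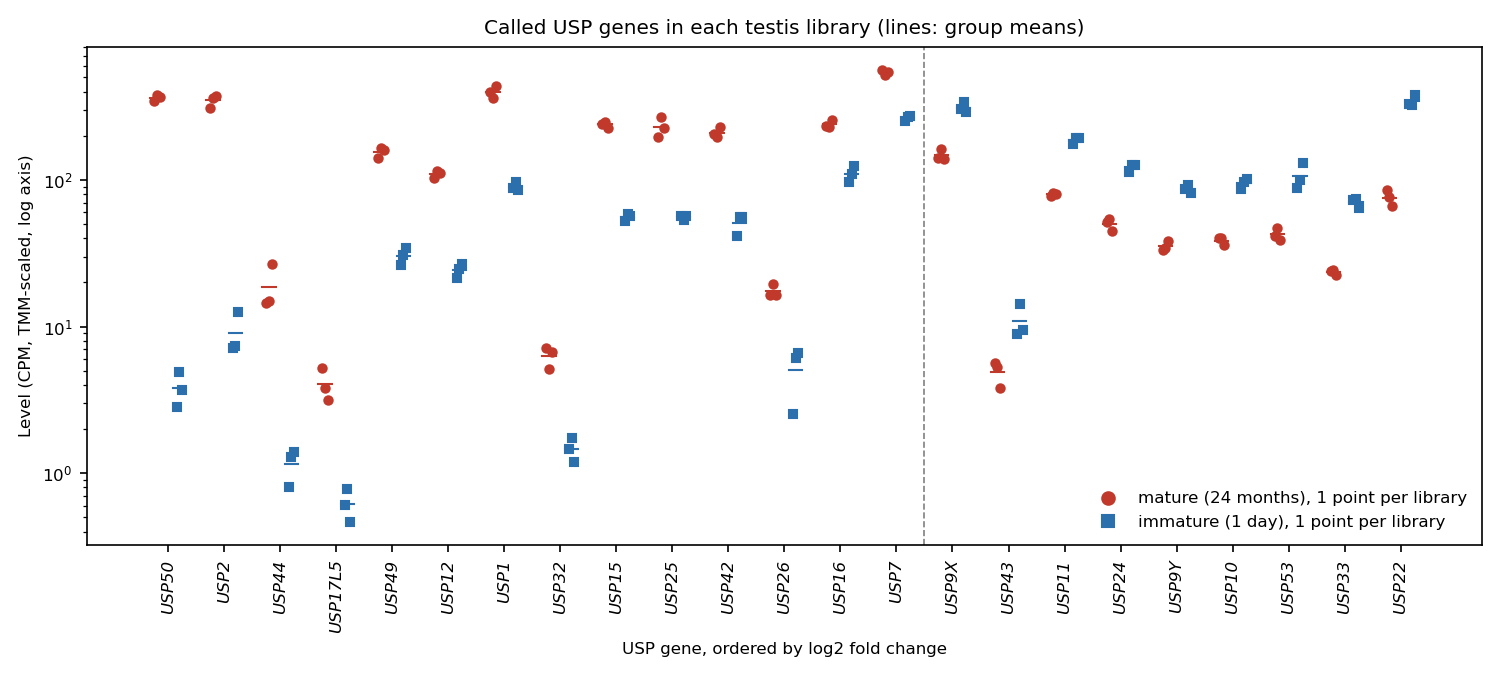
Level in CPM (log axis) of the 23 called USP genes in each library, with mature libraries (circles) left of immature libraries (squares) and short lines at the group means. Left of the dashed line are the 14 genes that rose and right of it the 9 that fell. USP50, USP2 and USP44 show the widest gaps between the ages.

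The 8 USP genes listed for histones and chromatin moved both ways, with 3 higher and 2 lower. Ubiquitin on histones H2A and H2B marks chromatin states, and several of these enzymes remove it. USP22, the deubiquitinase of the SAGA coactivator complex, was at 84.7, 76.0 and 66.1 CPM in mature and at 327, 323 and 381 CPM in immature libraries. Every bull was far below every calf, and this was the largest fall of the family (−2.18, SE 0.13, adjusted p = 1.28e-06). USP27X, an X-linked relative that can take the place of USP22, was at 25.4 ± 1.78 CPM in mature and 49.2 ± 9.71 CPM in immature testis and was just short of the threshold (−0.95, SE 0.17, adjusted p = 0.000834). It passed without immature replicate 3 (−1.10), with upper-quartile factors (−1.16) and with totals only (−1.02). Among the SAGA proteins that hold USP22, ATXN7 fell (26.4 ± 2.26 CPM in mature and 87.8 ± 25.8 CPM in immature testis, −1.73, SE 0.21), while ATXN7L3 (−0.90, SE 0.11) and ENY2 (−0.15, SE 0.12) were not called.

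USP49, which acts on histone H2B in human cells, was at 140.4, 165 and 159.5 CPM in mature and at 26.3, 30.8 and 34.2 CPM in immature libraries. It rose by the most in this group (2.35, SE 0.14, adjusted p = 1.08e-06). USP16, an H2A deubiquitinase, was at 233, 229.9 and 256 CPM in mature and at 96.4, 109.9 and 123 CPM in immature libraries. It rose (1.13, SE 0.12, adjusted p = 4.06e-05) but missed the threshold with upper-quartile factors (0.92). USP7, which controls the p53 ligase MDM2 and many chromatin proteins, was at 564, 522 and 545 CPM in mature and at 251, 269 and 271 CPM in immature libraries. The groups were wide apart, yet the fold was close to the threshold (1.04, SE 0.10, adjusted p = 1.51e-05), with 0.84 under upper-quartile factors, 0.98 under totals only and 1.00, just short of it, without immature replicate 1. GMPS, a partner of USP7, was at 0.82 (SE 0.11) and was not called.

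USP11, an X-linked relative of USP4 and USP15 with roles in DNA repair, was at 78.1, 81.1 and 80.0 CPM in mature and at 175, 193 and 193 CPM in immature libraries. It fell with little spread within either age (−1.23, SE 0.10, adjusted p = 6.98e-06). A separate row of the table, LOC512381, described there as a pseudogene of USP11 and outside the rule, had 1453, 1509 and 1546 counts in mature and 6, 10 and 13 counts in immature libraries. The counts of USP11 itself were 1247, 1208 and 1160 in mature and 2619, 2985 and 2910 in immature libraries, and reads that match both loci could have been assigned to either. USP3, an H2A deubiquitinase, was at 0.92 (SE 0.14) and passed the fold threshold without immature replicate 3 (1.05), in DESeq2 and with relative log expression factors (1.01 in both). USP21 was at −0.28 (95% interval −0.64 to 0.07).

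Of the 3 enzymes that bind and are switched on by the WD-repeat protein WDR48, 2 rose. USP1, which takes ubiquitin off FANCD2 and PCNA in DNA repair and whose loss makes male mice infertile, was at 397, 362 and 438 CPM in mature and at 87.5, 96.9 and 85.0 CPM in immature libraries. USP12 was at 102, 115 and 110.5 CPM in mature and at 21.6, 24.8 and 26.6 CPM in immature libraries. In both genes every bull was above every calf, with nearly the same fold change (2.15, SE 0.12, adjusted p = 6.94e-07 for USP1, and 2.17, SE 0.13, adjusted p = 1.07e-06 for USP12). USP46, the close relative of USP12, was at 43.4 ± 4.22 CPM in mature and 64.9 ± 2.82 CPM in immature testis (−0.58, SE 0.12, adjusted p = 0.00211) and was not called. Their cofactors WDR20 and WDR48 rose. WDR20 was at 109 ± 6.20 CPM in mature and 28.2 ± 1.51 CPM in immature testis (1.95, SE 0.11, adjusted p = 1.02e-06), and WDR48 at 191 ± 11.8 CPM and 93.9 ± 4.33 CPM (1.03, SE 0.10, adjusted p = 2.62e-05). WDR48 missed the threshold with upper-quartile factors (0.82), with totals only (0.96) and without immature replicate 1 (0.99).

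Among the 4 genes of the group of ISG15 and immune signaling, 2 rose. USP15, which acts on TGF-beta receptors and SMAD proteins and works with the COP9 signalosome, was at 241, 249 and 226 CPM in mature and at 52.3, 58.9 and 56.9 CPM in immature libraries (2.09, SE 0.11, adjusted p = 4.89e-07). USP25, a regulator of cytokine signaling, was at 195, 270.1 and 227 CPM in mature and at 56.8, 53.1 and 56.4 CPM in immature libraries. It varied more among bulls than among calves, and the groups were wide apart (2.06, SE 0.14, adjusted p = 2.44e-06). USP4 was at 0.81 (SE 0.11, adjusted p = 0.000159), below the threshold on the fold. USP18, which removes the interferon-induced modifier ISG15, was low at both ages, with 33, 25 and 18 counts in mature and 54, 59 and 35 counts in immature libraries. Its value (−0.96, SE 0.33) crossed the threshold without mature replicate 1 (−1.09), without immature replicate 3 (−1.16), with upper-quartile factors (−1.17) and with totals only (−1.03).

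Of the 7 genes with roles at endosomes, other membranes and organelles, 1 rose and 2 fell. USP32, a membrane-bound enzyme, was at 7.14, 5.10 and 6.69 CPM in mature and at 1.47, 1.75 and 1.19 CPM in immature libraries. It rose from a low level (2.09, SE 0.28, adjusted p = 0.000169). USP33, which acts on receptors and on the centrosome protein CP110, was at 23.7 ± 0.902 CPM in mature and 70.5 ± 5.17 CPM in immature testis (−1.57, SE 0.12, adjusted p = 4.79e-06), the second largest fall of the family. USP10, a partner of the stress granule proteins G3BP1 and G3BP2, was at 38.5 ± 2.38 CPM in mature and 94.8 ± 7.24 CPM in immature testis (−1.30, SE 0.12, adjusted p = 1.37e-05), while G3BP1 (0.24, SE 0.15) and G3BP2 (0.06, SE 0.11) were not called. USP8, which sorts receptors at endosomes, was at 135, 121 and 128 CPM in mature and at 115, 123 and 135 CPM in immature libraries. The ages overlapped, and the 95% interval of the log2 fold change ran from −0.21 to 0.29. USP20, with 25 to 61 counts per library, overlapped too (95% interval −0.65 to 1.13). USP19 of the endoplasmic reticulum (0.54, SE 0.12) and USP30 of mitochondria (−0.47, SE 0.12) were not called.

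Of the 6 genes of cell cycle and DNA damage, 0 rose and 1 fell. USP24 was at 50.2 ± 4.78 CPM in mature and 122 ± 7.68 CPM in immature testis (−1.28, SE 0.12, adjusted p = 1.71e-05). USP28, which stabilizes MYC and binds the DNA damage protein 53BP1, was at 68.0, 86.0 and 84.7 CPM in mature and at 170.5, 178 and 123 CPM in immature libraries. Immature replicate 3 was the lowest of the calves, and the groups did not overlap. The value was −0.98 (SE 0.17), just short of the threshold, which it passed without immature replicate 3 (−1.13), without mature replicate 2 (−1.02), with upper-quartile factors (−1.19) and with totals only (−1.06). USP37, which opposes the anaphase-promoting complex at the start of S phase, was at 0.88 (SE 0.11) and USP45 at −0.77 (SE 0.25). USP47 was at 179, 166 and 184 CPM in mature and at 167, 186 and 182 CPM in immature libraries. The ages overlapped and the 95% interval ran from −0.25 to 0.21. For USP48 it ran from −0.02 to 0.48.

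No member of the group that recycles ubiquitin was called (0 of 3). USP14, which trims chains at the proteasome and whose mutation in ataxia mice also impairs spermatogenesis, was at 44.8, 46.9 and 32.7 CPM in mature and at 39.2, 48.5 and 50.6 CPM in immature libraries. The groups overlapped, with mature replicate 3 the lowest (95% interval −0.55 to 0.25). USP5, which takes apart free ubiquitin chains, was at 158 ± 8.61 CPM in mature and 91.7 ± 10.1 CPM in immature testis (0.78, SE 0.12), and its relative USP13 at 12.4 ± 2.003 CPM and 20.5 ± 2.65 CPM (−0.72, SE 0.18). Of the genes listed for RNA and the nucleolus, USP39, a splicing factor without protease activity, was at 0.31 (SE 0.10), and the 95% interval of USP36, an enzyme of the nucleolus, ran from −0.30 to 0.33.

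USP53 and USP54, long regarded as inactive, lay on opposite sides of 0. USP53, a protein of tight junctions, was at 41.6, 47.2 and 38.6 CPM in mature and at 87.3, 100.4 and 131 CPM in immature libraries. It fell (−1.32, SE 0.17, adjusted p = 0.000121), and the calves were spread more widely than the bulls. USP54 was at 106 ± 9.57 CPM in mature and 56.1 ± 6.43 CPM in immature testis (0.92, SE 0.13) and passed the threshold in DESeq2, with relative log expression factors (1.01 in both) and without mature replicate 3 (1.05). C6H4orf3, which overlaps USP53 in the RefSeq annotation, also fell, with 792 to 1020 counts in mature and 2373 to 2513 counts in immature libraries.

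The remaining 8 genes held 1 that rose, USP17L5, and 2 that fell, USP9X and USP43. USP17L5 had 83, 57 and 46 counts in mature and 9, 12 and 7 counts in immature libraries, which correspond to 5.20, 3.82 and 3.17 CPM and to 0.603, 0.778 and 0.463 CPM. It rose (2.71, SE 0.36, adjusted p = 0.00014), and since USP17 is a family of many copies its counts are uncertain. USP43 was at 5.64, 5.30 and 3.79 CPM in mature and at 8.84, 14.3 and 9.46 CPM in immature libraries. The groups did not overlap (−1.15, SE 0.27, adjusted p = 0.00411), but the fold missed the threshold without mature replicate 3 (−0.93) and without immature replicate 2 (−0.90). USP34, which acts on axin in Wnt signaling, was at 508, 542 and 512 CPM in mature and at 337, 360.0 and 335 CPM in immature libraries. Every bull was above every calf, by less than the threshold on the fold (0.60, SE 0.09, adjusted p = 0.000413). USP38 (0.29), USP40 (−0.31), USP31 (−0.32) and USP35 (−0.59) were not called.

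Related USP genes were also compared within each library, where a ratio does not depend on the scaling between libraries. Ratios are of counts without regard to gene length, so only their change between ages is read. The USP50/USP8 ratio was 2.54, 3.13 and 2.88 in mature and 0.0247, 0.0396 and 0.0277 in immature libraries, a change of 6.56 on the log2 scale. The USP2/USP21 ratio was 12.7, 12.0 and 13.1 in mature and 0.188, 0.214 and 0.446 in immature libraries, a change of 5.59. These ratios were far apart between the ages and close together among the bulls. The USP11/USP15 ratio was 0.325, 0.325 and 0.355 in mature and 3.35, 3.28 and 3.38 in immature libraries, a change of −3.32, and this was the pair in which one gene rose and the other fell. LOC512381, the pseudogene row of USP11, had 1453, 1509 and 1546 counts in mature and 6, 10 and 13 counts in immature libraries. Reads that match both may bear on this ratio, and their part was not tested. The USP25/USP28 ratio changed by 3.02, the USP12/USP46 ratio by 2.75, the USP53/USP54 ratio by −2.23 and the USP42/USP36 ratio by 2.02 on the log2 scale.

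Of 21 pairs listed, 18 had both genes in the table. In 17 the exact two-sided permutation p was 0.1, the smallest that 3 against 3 libraries allow, and 0.106 after Benjamini-Hochberg adjustment over the 18 pairs, so no pair could pass 0.05. The exception was USP9Y/USP9X, at 0.239, 0.213 and 0.278 in mature and 0.288, 0.272 and 0.278 in immature libraries, a change of −0.21 on the log2 scale (exact permutation p = 0.3, the same after adjustment). The other changes ran from −1.87 for USP45/USP16 to 1.90 for USP20/USP33, with USP44/USP49 at 1.60 and USP4/USP15 at −1.28.

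**Figure D3:**
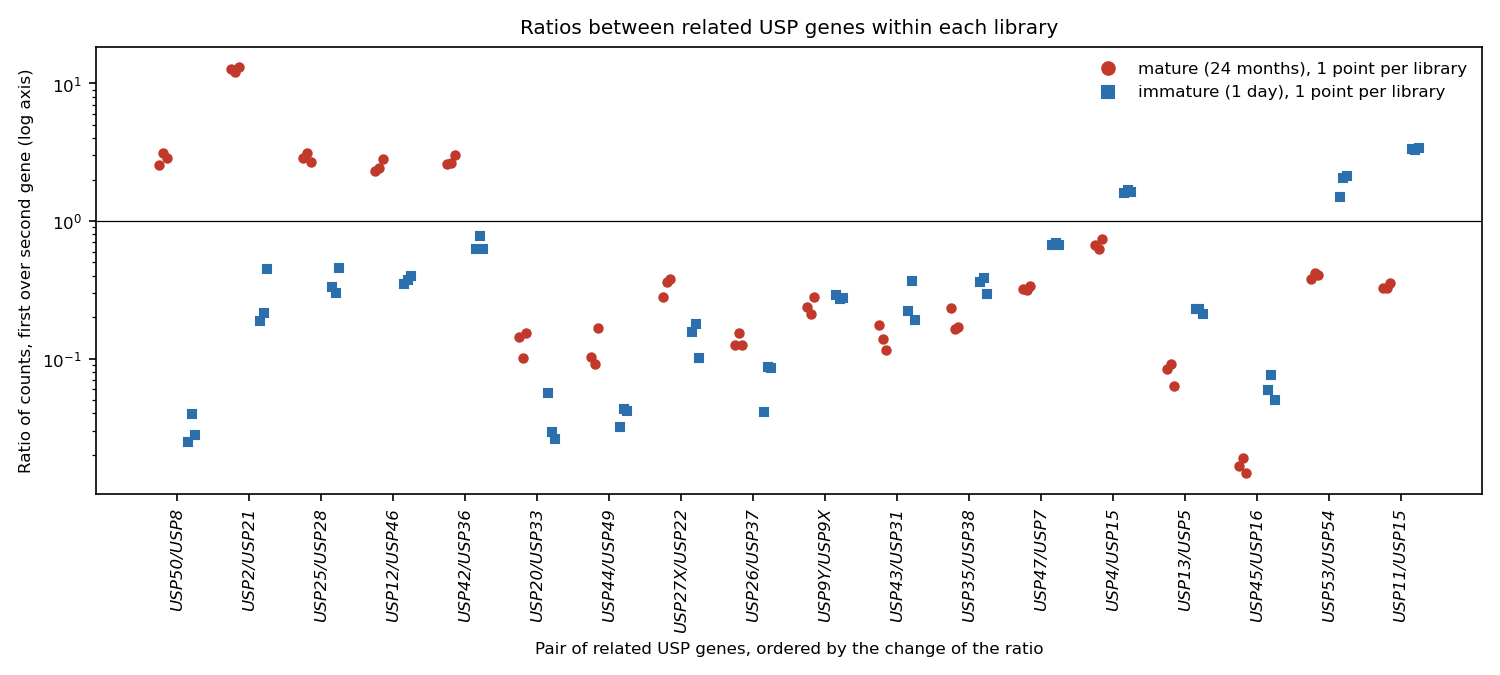
Ratio of the counts of the first to the second gene (log axis) for 18 pairs of related USP genes in each library, with mature libraries (circles) left of immature libraries (squares). Pairs run from USP50/USP8, whose ratio changed by 6.56 on the log2 scale, to USP11/USP15, at −3.32.

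Genes of deubiquitinase families with other folds, and the USP-type genes CYLD, PAN2 and USPL1 that the symbol rule leaves out, also moved both ways. The lists go by protein family, and whether each member is an active deubiquitinase was not checked. Of 44 listed, 42 were in the table and tested, and 13 rose, 6 fell and 23 were not called, with a median log2 fold change of 0.22. These are 31.0% higher and 14.3% lower, where all tested genes had 31.7% higher and 30.4% lower. In the OTU family, whose members often prefer a single type of chain, 7 of 16 rose and 2 fell. OTUB2 was at 164 ± 27.0 CPM in mature and 5.54 ± 0.869 CPM in immature testis (4.88, SE 0.19, adjusted p = 1.28e-07) and OTUD7A at 11.5 ± 2.66 CPM and 1.08 ± 0.0823 CPM (3.41, SE 0.28). OTUD6A had 252 counts over the mature and 1 count over the immature libraries, a log2 ratio of 7.98 with a 95% counting interval of 5.49 to 13.29, which covers counting error only. ALG13 (−2.02, SE 0.15) and OTUD5 (−1.87, SE 0.13) fell.

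In the JAMM family, which includes metalloproteases, 1 of 12 rose and 4 fell. COPS5, the catalytic subunit of the COP9 signalosome, was at 174 ± 7.71 CPM in mature and 55.5 ± 4.60 CPM in immature testis (1.65, SE 0.11). BRCC3, which cuts chains at DNA breaks as part of the BRCA1-A complex, was at 4.37 ± 1.12 CPM in mature and 31.5 ± 2.72 CPM in immature testis (−2.84, SE 0.22), and MPND (−2.71, SE 0.18) and EIF3F (−2.16, SE 0.11) fell too. Of the UCH family BAP1, which acts on histone H2A, rose (313 ± 49.0 CPM in mature and 82.0 ± 8.74 CPM in immature testis, 1.93, SE 0.15), as did UCHL3 (1.82, SE 0.12). UCHL1, a marker of early germ cells in cattle, was at −0.93 (SE 0.24) and was not called. ATXN3 of the Josephin family (3.64, SE 0.18), the MINDY4 gene under its older symbol FAM188B (2.41, SE 0.18) and CYLD (1.56, SE 0.13) rose.

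Genes that encode ubiquitin itself or activate it moved both ways. UBB, whose transcript encodes a chain of ubiquitin units, was at 1449 ± 79.9 CPM in mature and 402 ± 56.6 CPM in immature testis and rose (1.85, SE 0.13, adjusted p = 2.83e-06). RPS27A, which encodes ubiquitin joined to a ribosomal protein, was at 147 ± 6.34 CPM in mature and 968 ± 76.0 CPM in immature testis and fell (−2.72, SE 0.11, adjusted p = 1.38e-07). UBA1, the main enzyme that activates ubiquitin, fell too (−1.33, SE 0.09), and UBA6 was at 0.43 (SE 0.11) and was not called.

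**Figure D4:**
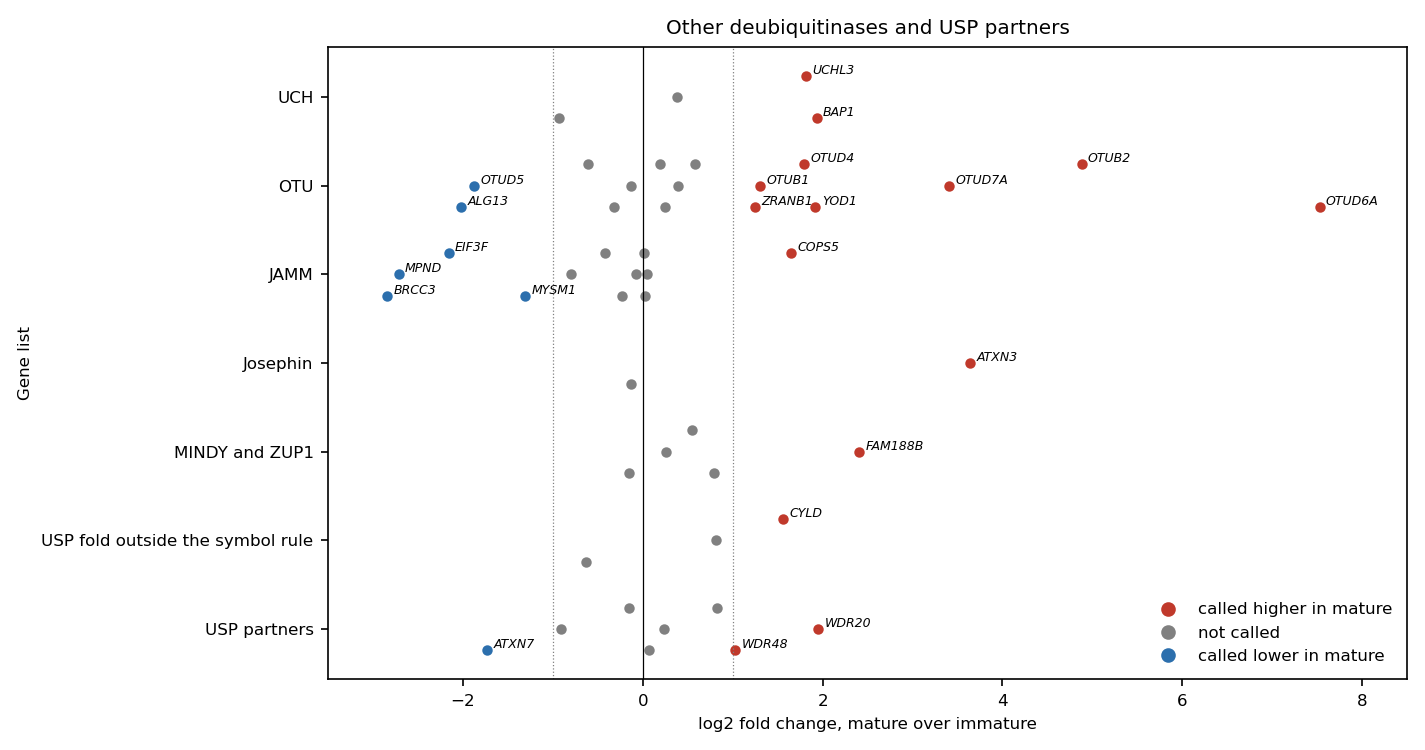
Log2 fold change, mature over immature, of genes in 7 lists of other deubiquitinases and USP partners (1 point per gene, spread vertically for legibility). Called genes are named, from OTUD6A at 7.53, which has 1 immature count, to BRCC3 at −2.84, and the dotted lines mark the threshold of 1 on the log2 scale.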

How the data were processed

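The mRNA of 6 testes was sequenced by the authors on oligo(dT) libraries. Per the authors, reads passed Fast-QC and were mapped by Hisat2 on Btau_5.0.1, and the deposited table holds unnormalized counts of each gene in each library. The sources used here do not name versions, read counter, strand setting or annotation. The deposited comparison tables (group signals, log2 fold changes and FDR) and the small RNA pools were not used. The labels name no batch.

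Tests were run with R 4.3.3 and edgeR 4.0.16 (TMM, filterByExpr, robust quasi-likelihood fit), limma 3.58.1 and DESeq2 1.42.0, and plotted with matplotlib 3.10.9. Dividing the log2 fold change by the root of its F statistic gave the SE. Ratios of related genes were taken with 0.5 counts added to both. The members, role groups, gene lists and pairs were chosen with earlier results of these data known. Values per library are given for called members with an absolute log2 fold change of 2 or more, the 6 members with the highest mean CPM at either age, pairs called in opposite directions, and others picked after their values were seen. Of other lists at most 3 called genes per direction were named, with partners of USP proteins added. Of the 49 symbols 48 matched RefSeq ARS-UCD2.0, which was used for overlapping genes only. Transcript lengths were not used here, so the CPM ranks and shares are of counts and not of transcript levels per length, and no sequences are shown. Libraries of one age differed by a chi-square per degree of freedom of 9.60 to 38.8, above counting error. The test was tried on simulated data. Alternatives were other scalings, tests and filters, each library left out, a replicate block and no fold threshold. Some genes of the ubiquitin list are not reported here.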

Additional observations from a re-analysis of the deposited data

How the results depend on the processing

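Of the 23 USP genes called, 19 kept their call and direction under all 15 alternatives, and the other 4 (USP7, USP9X, USP16 and USP43) lost it only through the fold threshold. No called USP gene changed sign (0 of 23). Without the fold threshold 22 USP genes were higher and 18 lower, and of other deubiquitinases 19 were higher and 11 lower. All tested genes also gained calls in both directions at that setting, with nearly equal numbers higher and lower. In USP genes and in other deubiquitinases the share higher was above, and the share lower below, that of all tested genes. These counts of USP genes and other deubiquitinases were not tested against that background. Leaving out each library gave 13 to 15 USP genes higher and 7 to 12 lower. Among all tested genes more were higher than lower each time. The USP median then ran from 0.11 to 0.25. With upper-quartile factors this median was 0.025. Signs turned only in USP genes that were not called. USP36 was at −0.18 with upper-quartile factors and −0.041 with totals only, and USP8 at −0.16 and −0.023. USP47 was at 0.073 with relative log expression factors and in DESeq2 and at 0.050 without the filter. Over the libraries left out, USP47 ran from −0.073 to 0.052, USP36 from −0.084 to 0.16, USP8 from −0.025 to 0.10, USP14 from −0.27 to 0.054 and USP20 from −0.0033 to 0.70. With the replicate number as a replicate block 14 USP genes were higher and 9 lower, with a median of 0.23, and it changed no call of a USP gene. The labels do not say that equal numbers share an animal, and the deviations of same-numbered libraries correlated at −0.033, −0.017 and −0.015, so the numbers do not pair the samples. The ratios of related genes kept their direction with 2 counts added and without each library. Low counts limit USP17L5, USP18, USP20, USP32, USP35, USP43 and USP45, and 3 animals per age limit the exact tests. In immature libraries low counts also limit USP44 (12, 20 and 21) and USP26 (38, 94 and 99). The causes of these shifts were not tested.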

Other observations

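The table holds other rows that are described as USP-like and fall outside the symbol rule, and these were picked by their description after values were seen. LOC788661, described as USP29-like, had 20, 18 and 17 counts in mature and 4, 3 and 6 counts in immature libraries (log2 fold change 2.05, SE 0.39, edgeR adjusted p = 0.00135). Of the rows described as USP17-like, LOC790134 had 53, 39 and 34 counts in mature and 6, 7 and 6 counts in immature libraries (2.70, SE 0.34), LOC101907085 had 81, 62 and 54 against 20, 19 and 12 counts (1.94, SE 0.32), and the lncRNA row LOC101908506 had 241, 126 and 120 against 52, 43 and 41 counts (1.82, SE 0.30). These rows rose, as did USP17L5, while LOC100140262 (USP10-like) had 1 count over all libraries and LOC101902096 (USP46-like) had 0, and neither was tested. The assignment of reads among similar copies is not described in the sources used here.

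Of 19 rows that overlap 18 USP genes in the RefSeq annotation, 7 rose, 1 fell, 7 were not called and 4 were not tested. Among all tested genes 31.7% were higher and 30.4% lower. LOC101903835 (in USP2) rose and C6H4orf3 (in USP53) fell, as given above. RWDD2B, which overlaps USP16, had 1189 to 1590 counts in mature and 196 to 427 counts in immature libraries. CDCA3, which overlaps USP5, had 1263 to 1579 counts in mature and 71 to 217 counts in immature libraries. DGKD, which overlaps USP40, had 5258 to 6329 counts in mature and 1056 to 1319 counts in immature libraries, while USP40 was at −0.31 (SE 0.10). MED20, which overlaps USP49, had 450 to 509 counts in mature and 214 to 272 counts in immature libraries. LOC101906280, which overlaps USP44, had 40, 49 and 40 counts in mature and 1, 0 and 3 counts in immature libraries. The lncRNA LOC104975030, which overlaps USP43, had 51, 35 and 50 counts in mature and 28, 16 and 15 counts in immature libraries and rose, while USP43 fell. ABAT, which overlaps USP7, was just short of the threshold and not called (0.98, SE 0.21). It had 1676 to 2053 counts in mature and 667 to 1277 counts in immature libraries.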
